A study of Mus musculus with 4 samples.

Results

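Isx, Bcmo1 and Scarb1 were described in mouse small intestinal organoids with lost, reduced or induced Yap. The genes were taken by symbol as 3 of the 22632 genes in the deposited expression table, in which Bcmo1 is the older symbol of Bco1. They were chosen with their levels and ratios in these same libraries known, so the values below are a description and carry no test. The libraries are RNA-seq of organoids harvested 24 hours after whole crypts were seeded in Matrigel with EGF, Noggin, R-spondin and N2 and B-27 supplements. Each of the 4 groups is represented by 1 library. The Yap-/- organoids came from Yapfl/fl;VillinCre mice and the Yap+/- organoids from Yap+/fl;VillinCre mice, so both carried the Cre transgene that deletes floxed alleles in the intestinal epithelium. The YapTg organoids carried a doxycycline-inducible wild-type Yap transgene under a Cre-driven reverse tetracycline transactivator, and were grown with or without doxycycline. No library without any engineered allele and no library with the drug but without the transgene was analysed here. The number of animals behind each culture is not given in the sources used here.

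ISX is a homeobox transcription factor of the intestinal epithelium. It is known in mice to repress Scarb1 and Bcmo1. SCARB1, also called SR-BI, is a membrane receptor for high-density lipoprotein that also takes up carotenoids at the enterocyte surface. BCMO1 is the cytosolic oxygenase that cleaves beta-carotene symmetrically into retinal, the precursor of retinol and retinoic acid. Retinoic acid induces Isx in the mouse intestine, and ISX then lowers uptake and cleavage of carotenoids, which closes a feedback loop on vitamin A production. The labels do not say whether the B-27 supplement held vitamin A.

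The sequence before the annotated start of Isx and of Bcmo1 is shown because Bcmo1 is the gene with the widest difference between the reference cultures below, and because homeodomain factors such as ISX read short letter motifs with a TAAT core. Both sequences are from RefSeq on GRCm38.p6, plus strand, at chr8:74872924-74873173 for Isx and chr8:117095615-117095850 for Bcmo1. The Isx sequence ends at the last base before the annotated start. The Bcmo1 sequence stops short of its annotated start, because the last 14 bases before that start lie inside the RefSeq gene and are not printed. Both are genomic reference sequence and not reads of these cultures. Capitals mark every match, on either strand, to the homeodomain core TAAT, the CDX core TTTAT, the nuclear receptor hexamer AGGTCA and the TATA box core TATAAA.
Isx: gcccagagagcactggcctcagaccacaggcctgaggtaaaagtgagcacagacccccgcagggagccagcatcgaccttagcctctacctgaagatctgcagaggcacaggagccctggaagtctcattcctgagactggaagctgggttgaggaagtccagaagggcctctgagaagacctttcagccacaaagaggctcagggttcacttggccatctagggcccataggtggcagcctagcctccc
Bcmo1: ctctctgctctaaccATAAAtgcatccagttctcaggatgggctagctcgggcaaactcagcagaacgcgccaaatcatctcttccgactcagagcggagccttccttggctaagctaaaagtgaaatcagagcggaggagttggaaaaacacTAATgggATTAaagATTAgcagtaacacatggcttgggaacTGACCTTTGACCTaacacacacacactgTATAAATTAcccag

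In the Bcmo1 window the TAAT core occurred with its first base at -97, -90, -83 and -23, counted from -1 as the base just before the annotated start. The matches at -90, -83 and -23 read ATTA because they lie on the minus strand. At least 1 TAAT occurred in 54.9% of the 32851 RefSeq windows of 250 bases searched in the same way, so its presence is common. The hexamer AGGTCA occurred on the minus strand at -56 and -49, and both lie in the match TGACCTTTGACCT from -56 to -44. That match is the direct repeat AGGTCANAGGTCA, the form of hexamer pair that heterodimers of PPAR and RXR receptors bind, and 11 of the 32851 windows (0.0335%) held it. This motif was searched for with the sequence in view. The TATA box core lies at -28, and it overlaps the CDX core at -27 and the TAAT match at -23. The Isx window held 0 matches to any of these motifs. The paired homeodomain palindrome TAATTA and the direct repeat with 5 bases between its hexamers were searched for too. Neither occurred in the Isx or the Bcmo1 window, and they occurred in 4.84% and 0.00913% of all windows. None of the matches is shown to be a site in use in these cultures.

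The library totals recovered from the deposited values lay between 44934170 and 75269003 reads. Values are RPKM, which divides reads by gene length and by library size, and they can be compared between genes as well as between libraries. Genes are called higher or lower when the log2 ratio of RPKM plus a pseudocount of 1 reached 2-fold and the higher library held 1 RPKM or more. With no replicate in any group there is no spread between cultures to set a difference against, and every interval below is a 95% interval of counting error only. Reads that are PCR copies of the same molecule are counted separately in them. Yap1 matched the labels, at 3.35 RPKM in Yap-/- organoids against 16.7 RPKM in Yap+/- ones, and at 1039 RPKM with and 25.1 RPKM without doxycycline.

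Isx, the repressor, was lowest in Yap-/- organoids and high in both YapTg libraries. Its level was 0.429 RPKM (52 reads, interval 0.320 to 0.562) in the Yap-/- library and 10.6 RPKM (1081 reads, interval 9.97 to 11.2) in the Yap+/- library. It was 65.6 RPKM (8854 reads) with doxycycline and 72.2 RPKM (5815 reads) without doxycycline in YapTg organoids. The highest and the lowest library thus differed by 169-fold.

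Bcmo1, the carotene cleavage enzyme, had its high levels where Isx was low. It stood at 124.9 RPKM (19302 reads) in the Yap-/- library and 48.6 RPKM (6315 reads) in the Yap+/- library. It stood at 1.64 RPKM (281 reads, interval 1.45 to 1.84) with doxycycline and 2.36 RPKM (242 reads, interval 2.07 to 2.68) without doxycycline in YapTg organoids. The span from the lowest to the highest library was 76.4-fold.

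Scarb1, the uptake receptor, had the same order of libraries as Bcmo1 over a narrower range of 8.18-fold. It was at 32.2 RPKM (13725 reads) in the Yap-/- library and 11.3 RPKM (4047 reads) in the Yap+/- library. It was at 3.94 RPKM (1864 reads) with doxycycline and 4.83 RPKM (1366 reads) without doxycycline in YapTg organoids. In rising order of level the libraries ran Yap-/-, Yap+/-, YapTg with doxycycline and YapTg without doxycycline for Isx. For Bcmo1 and Scarb1 they ran YapTg with doxycycline, YapTg without doxycycline, Yap+/- and Yap-/-, so only the order within the YapTg pair keeps the ranking from being a mirror image. All neighbours in these orders were separated by more than counting error, but whether they differ beyond the spread between cultures is not known. The order of Bcmo1 and Scarb1 was not particular to them. The summed enterocyte markers described below had it too, from 1933 RPKM with doxycycline to 11232 RPKM in Yap-/- organoids. So did the summed genes of retinoid and carotenoid metabolism and of lipid and sterol uptake. Summed stem cell, Paneth and goblet cell markers had other orders.

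**Figure D1:**
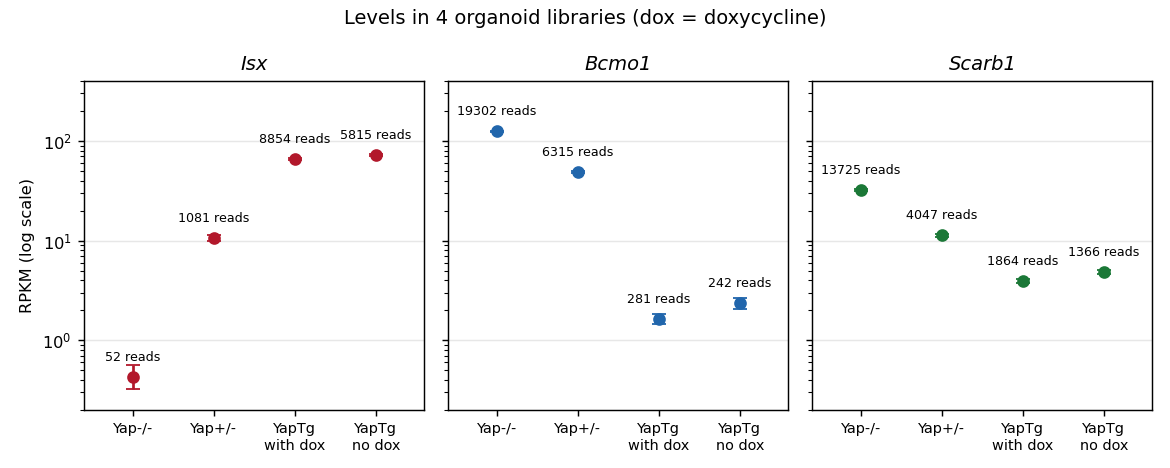
RPKM on a log scale of Isx, Bcmo1 and Scarb1 in each of the 4 libraries, 1 point per library, with exact Poisson 95% intervals of counting error and the reads behind each point. Isx lies at 0.429 RPKM in Yap-/- and above 65 RPKM in both YapTg libraries, while Bcmo1 lies at 124.9 RPKM in Yap-/- and below 2.5 RPKM in both YapTg libraries.

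Loss of Yap was described by comparing 1 Yap-/- library with 1 Yap+/- library, which cannot show that a transcript depends on the gene. Isx was 24.7-fold lower in Yap-/- organoids (interval 18.7 to 33.3), with a log2 ratio of -3.02. Bcmo1 was 2.57-fold higher (interval 2.50 to 2.64, log2 ratio 1.34). Scarb1 was 2.85-fold higher (interval 2.75 to 2.95, log2 ratio 1.43). All 3 genes were past 2-fold, where 0.906% of the 10710 genes at 1 RPKM were, 0.336% higher and 0.570% lower. Since the genes were chosen on these ratios, that share is given as background only. Counted from the lowest log2 ratio Isx was at rank 2 of 10710, and counted from the highest Scarb1 was at rank 8 and Bcmo1 at rank 11.

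Induction of Yap was described by comparing YapTg organoids with and without doxycycline. Isx, Bcmo1 and Scarb1 differed little here, although Yap1 was 41.4-fold higher with the drug. Isx was 9.10% lower (interval 6.03 to 12.1%), Bcmo1 30.7% lower (interval 17.3 to 41.8%) and Scarb1 18.5% lower (interval 12.6 to 24.1%). The log2 ratios were -0.14 for Isx, -0.35 for Bcmo1 and -0.24 for Scarb1, and the median over all 11108 genes at the floor was -0.04. Of the 3 genes 0 passed 2-fold, where 11.6% of all genes did, 5.85% higher and 5.80% lower. This is a statement about 1 pair of libraries, and a p-value was not computed.

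The Yap+/- and the uninduced YapTg cultures are both reference cultures, yet all 3 genes were past 2-fold between them. Isx was 6.81-fold lower in Yap+/- organoids (interval 6.39 to 7.28, log2 ratio -2.66). Bcmo1 was 20.6-fold higher (interval 18.1 to 23.5, log2 ratio 3.88). Scarb1 was 2.34-fold higher (interval 2.20 to 2.49, log2 ratio 1.08), and with a pseudocount of 5 its log2 ratio of 0.73 no longer reached 2-fold. Among 10883 genes at the floor Bcmo1 held rank 2 from the highest log2 ratio and Scarb1 rank 95, while Isx held rank 7 from the lowest. Past 2-fold were 1.84% of all genes, 1.11% higher and 0.726% lower. Median-ratio scaling moved the split of calls to 171 higher and 62 lower, against 121 and 79 as deposited. The median log2 ratio over all genes was -0.11 as deposited and 0.01 after that scaling.

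This pair shares the Yap+/- library with the comparison of Yap loss, and the uninduced YapTg library with that of induction, so the 3 comparisons are not independent. The Yap+/- library lay between the Yap-/- library and both YapTg libraries for each of the 3 genes. Isx was also 6.19-fold higher (interval 5.81 to 6.60) in induced YapTg organoids than in Yap+/- organoids. Genotype and organoid line differ together between the Yap+/- and YapTg cultures and cannot be told apart.

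**Figure D2:**
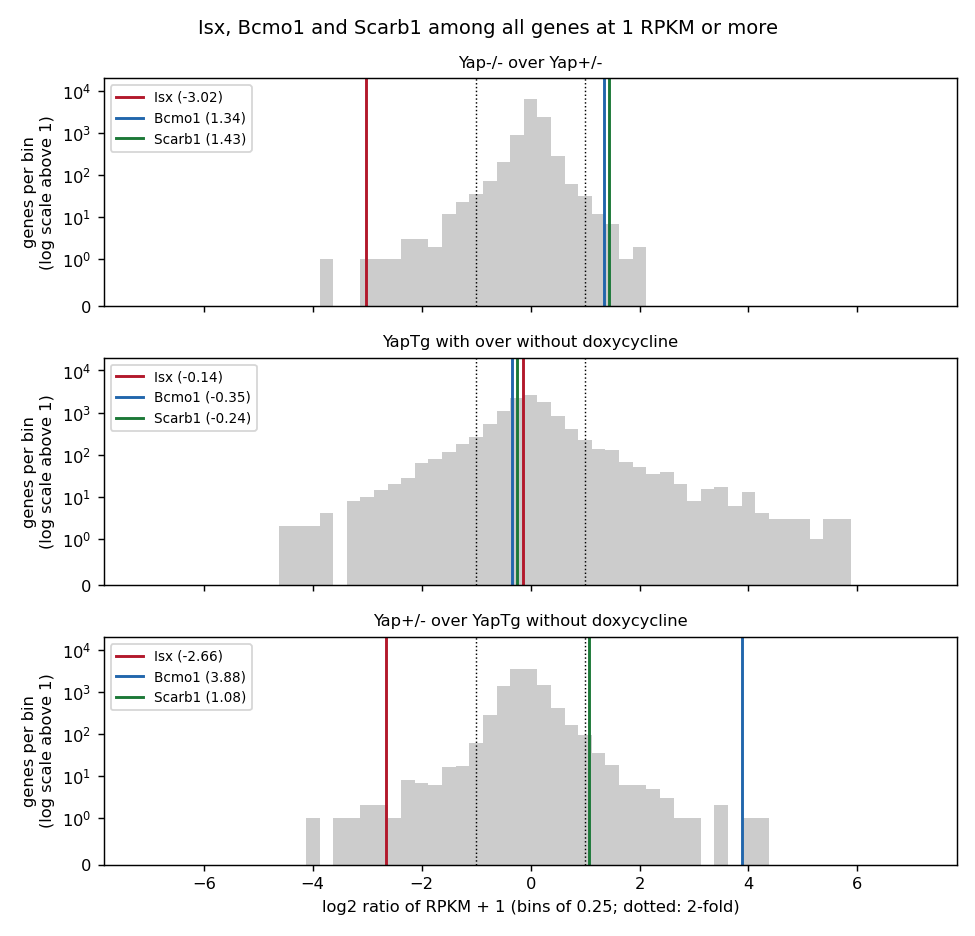
Number of genes (log scale above 1) in bins of 0.25 of the log2 ratio of RPKM plus 1, for genes that reached 1 RPKM in at least 1 library of each comparison, with coloured lines at Isx, Bcmo1 and Scarb1 and dotted lines at 2-fold. The 3 lines lie in the tails for Yap-/- over Yap+/- and Yap+/- over uninduced YapTg, with Isx at -3.02 and -2.66, and near the centre for doxycycline, between -0.35 and -0.14.

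Within a library the ratio of repressor to enzyme transcript spanned a wide range. Per length, Isx stood at 0.00343 times the level of Bcmo1 in Yap-/- organoids and 0.218 times in Yap+/- organoids. It stood at 40.1 times the level of Bcmo1 with doxycycline and 30.6 times without it in YapTg organoids. Against Scarb1 the ratio of levels was 0.0133 in Yap-/- and 0.938 in Yap+/- organoids, and 16.7 with and 14.9 without doxycycline. Bcmo1 itself was above Scarb1 in the first pair, at 3.88 times its level in Yap-/- and 4.30 times in Yap+/- organoids. It was below Scarb1 in the YapTg pair, at 0.416 times with and 0.488 times without doxycycline. These are ratios of transcript levels in whole organoids, and no protein was measured.

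**Figure D3:**
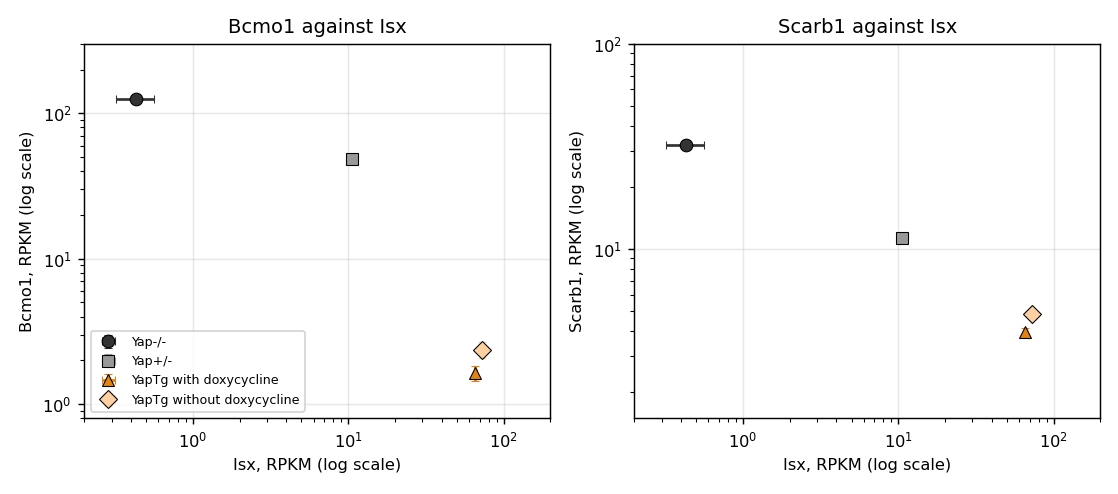
Level of Bcmo1 (left) and Scarb1 (right) against that of Isx in RPKM, both axes on a log scale, 1 symbol per library with exact Poisson 95% intervals. The Yap-/- library lies at the upper left, the Yap+/- library between, and both YapTg libraries at the lower right, with Isx at 65.6 and 72.2 RPKM there.

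Isx was also compared by its level with a list of other homeobox genes, which leaves out Cdx1, Cdx2 and the other homeobox factors placed among the intestinal transcription factors below. Of the 36 genes of that list including Isx, Isx ranked 7 by RPKM in Yap-/- organoids and 1 in each of the other libraries. The highest of the others on that list was Tgif1 in every library, between 8.26 and 16.1 RPKM. Cdx2 and Cdx1 were higher than Tgif1 in every library, Cdx2 at 62.5 to 76.0 RPKM and Cdx1 at 41.9 to 89.2 RPKM. In a group with 20 intestinal transcription factors Isx ranked 20 of 21 in the Yap-/- and 12 of 21 in the Yap+/- library, and 5 of 21 with and 4 of 21 without doxycycline. Of the other homeobox genes on the list 13 of 35 were listed at 0 in all libraries, and none of those at the floor passed 2-fold in any comparison (0 of 6 for Yap loss, 0 of 5 for each of the others).

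The intestinal factors known to drive epithelial identity differed less than Isx in Yap loss and between the reference cultures, and some differed more than Isx with doxycycline. For Yap loss 0 of 19 at the floor passed 2-fold, with a median log2 ratio of 0.09 beside 0.05 for all genes. The factors furthest apart were Pdx1, a duodenal homeobox factor, at 4.15 RPKM in Yap-/- organoids against 6.87 RPKM in Yap+/- ones, and Osr2 at 15.1 and 11.2 RPKM in the same order. Cdx2, the caudal homeobox factor that specifies intestine, was at 76.0 RPKM in Yap-/- organoids against 72.8 RPKM in Yap+/- ones, and at 69.5 RPKM with and 62.5 RPKM without doxycycline. Cdx2 lies outside the naming rule and was picked with its values known.

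With doxycycline 1 of 19 factors was higher and 4 were lower, with a median log2 ratio of -0.02. Klf4, a factor of differentiating and stressed epithelium, was 5.54-fold higher. Hnf4g, a nuclear factor of enterocyte genes, was 3.25-fold lower, Creb3l3, a regulator of lipid genes, 2.29-fold lower and Cdx1 2.13-fold lower. Between the reference cultures 0 of 19 passed 2-fold, and Creb3l3 was 1.89-fold higher and Cdx1 1.82-fold lower in Yap+/- organoids.

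Other genes of retinoid and carotenoid metabolism had no member past 2-fold when Yap was lost. The list of 35 such genes, without Bcmo1, had 23 members at the floor. In Yap-/- over Yap+/- organoids 0 of 23 were past 2-fold and 18 of 23 ratios lay above 0, with a median log2 ratio of 0.17. Bco2, the mitochondrial oxygenase that cleaves carotenoids off centre, was at 46.2 RPKM in Yap-/- organoids against 36.4 RPKM in Yap+/- ones. Rbp2, the retinol-binding protein of the enterocyte, was at 1664 RPKM in Yap-/- organoids against 1402 RPKM in Yap+/- ones. Furthest apart were Ttr, a carrier of thyroid hormone and of the retinol-binding complex, at 5.23 and 2.48 RPKM, and the retinol dehydrogenase gene Rdh7 at 72.2 and 51.4 RPKM, in the same order of libraries. As a ratio of RPKM without the pseudocount Ttr was 2.11-fold higher. Rpe65, the third member of the carotenoid oxygenase family in mice, was listed at 0 in all libraries.

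With doxycycline this pathway was broadly lower, while Bcmo1 was 30.7% lower. Of the 23 genes 12 were at least 2-fold lower and 0 higher, with a median log2 ratio of -1.14 beside -0.04 for all genes. Rbp7, a retinol-binding protein, was at 1.15 RPKM with and 14.3 RPKM without doxycycline, 12.5-fold lower. Rdh7 was 8.52-fold lower, and Adh4 and Adh1, alcohol dehydrogenases that act on retinol, were 8.40-fold and 7.84-fold lower. Bco2 was at 2.60 RPKM with and 17.8 RPKM without doxycycline, 6.83-fold lower. Bco2 was named as the relative of Bcmo1. Bcmo1 was already low in the uninduced culture, at 2.36 RPKM, whereas Rdh7 was there at 23.1 RPKM and Adh1 at 425.8 RPKM.

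Between the reference cultures 2 of the 23 genes were at least 2-fold higher in Yap+/- organoids and 0 lower, with a median log2 ratio of 0.29. These were Rdh7 at 2.23-fold and Adh1 at 2.13-fold, against 20.6-fold for Bcmo1. As ratios of RPKM without the pseudocount, Adh7 (2.50-fold) and Bco2 (2.05-fold) were above 2-fold too. Bco2 was at 36.4 RPKM in Yap+/- organoids against 17.8 RPKM in uninduced YapTg ones.

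Readouts of retinoic acid itself were sparse. The receptor genes Rara, Rxra and Rxrb were the 3 of 6 at the floor, and 0 of 3 passed 2-fold in any comparison. Rara was at 4.56 RPKM in Yap-/- organoids against 4.42 RPKM in Yap+/- ones, and at 5.51 RPKM with and 5.33 RPKM without doxycycline. Rxra was at 23.9 RPKM in Yap-/- organoids against 21.0 RPKM in Yap+/- ones, and at 9.82 RPKM with and 17.5 RPKM without doxycycline. Rxrb lay between 11.6 and 14.4 RPKM, Rarg between 0.415 and 0.673 RPKM and Rarb between 0.0928 and 0.128 RPKM over the libraries, and Rxrg was listed at 0 in all of them. Of 10 genes known to be induced by retinoic acid 4 reached the floor. Past 2-fold was 1 of them in 1 comparison, Dhrs3, a reductase that returns retinal to retinol, at 1.46 RPKM with and 8.47 RPKM without doxycycline. The medians of the 4 were -0.19 for Yap loss, -0.42 for doxycycline and 0.10 for the reference cultures. The retinoic acid hydroxylase genes Cyp26a1 and Cyp26b1, common reporters of retinoic acid, were at 0.07 RPKM or less in every library.

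**Figure D4:**
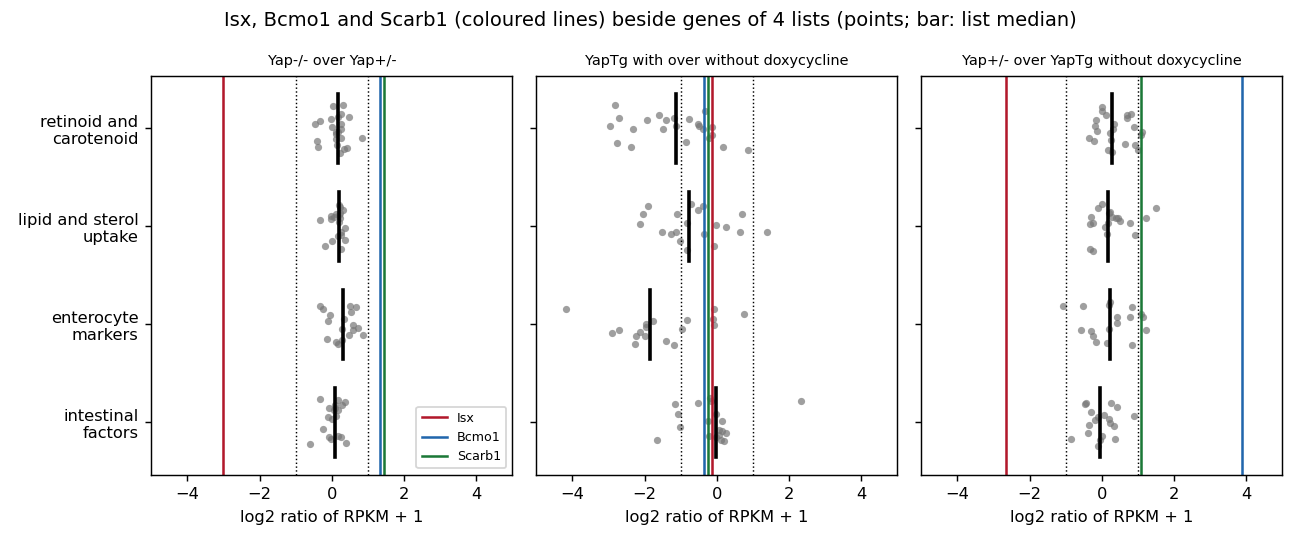
Log2 ratio of RPKM plus 1 for genes at the floor in 4 lists (points, with the list median as a black bar) and for Isx, Bcmo1 and Scarb1 (coloured lines), in each comparison, with dotted lines at 2-fold. For Yap loss the points lie inside the 2-fold lines and the coloured lines outside, while with doxycycline the median of the retinoid and carotenoid list is -1.14 and the coloured lines lie between -0.35 and -0.14.

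Genes that share the tasks of Scarb1 were compared as well. Of 21 genes of lipid and sterol uptake and lipoprotein assembly, without Scarb1, 20 reached the floor. For Yap loss 0 of 20 passed 2-fold, with a median log2 ratio of 0.21, and the sterol exporter gene Abca1 (1.53-fold higher) and the acyltransferase gene Mogat2 (1.29-fold higher) were furthest apart. Cd36, the fatty acid translocase of the same receptor family as Scarb1, was at 11.6 RPKM in Yap-/- organoids against 9.60 RPKM in Yap+/- ones. Scarb2, the lysosomal family member, was at 20.6 RPKM in Yap-/- organoids against 17.9 RPKM in Yap+/- ones, and at 17.6 RPKM with and 17.8 RPKM without doxycycline. Its levels thus spanned less than those of Scarb1.

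With doxycycline 8 of the 20 were lower and 1 was higher, with a median of -0.76. The apolipoprotein genes Apoa4 and Apoc3 were 4.44-fold lower each, Mogat2 4.31-fold and the sterol exporter gene Abcg8 3.10-fold. Pdzk1, the gene of a scaffold protein that binds SCARB1, was the gene that was higher, at 22.0 RPKM with and 7.84 RPKM without doxycycline, and it was picked with its values known. Between the reference cultures 2 of 20 were higher in Yap+/- organoids and 0 lower, with a median of 0.18. Cd36 was at 9.60 RPKM in Yap+/- organoids against 2.74 RPKM in uninduced YapTg ones, 3.51-fold higher, and Apoa4 was 2.33-fold higher.

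Bcmo1 and Scarb1 are expressed by enterocytes, so the makeup of the cultures was set beside them. The 18 enterocyte markers were all at the floor, and their summed level was 11232 RPKM in Yap-/- organoids against 8097 RPKM in Yap+/- ones, and 1933 RPKM with and 5259 RPKM without doxycycline. That sum spanned 5.81-fold over the libraries, against 76.4-fold for Bcmo1 and 8.18-fold for Scarb1. The sum is weighted to the highest markers and is not the range of a single gene. Single markers had wider or narrower ranges than the sum. Fabp1 lay at 5766 RPKM in Yap-/- organoids and 106 RPKM with doxycycline. Treh lay at 65.4 and 2.33 RPKM in the same order, while Alpi stayed between 349 and 491 RPKM over the libraries. In whole cultures fewer cells of a type and less RNA per cell cannot be told apart. For Yap loss 0 of 18 markers passed 2-fold, with a median log2 ratio of 0.32, where Slc2a5 was 1.84-fold and Fabp1 1.67-fold higher. With doxycycline 12 of 18 were lower and 0 higher, with a median of -1.86, among them Fabp1 (18.3-fold), Treh (10.2-fold), Slc2a5 (7.90-fold) and Slc5a1 (4.85-fold). Between the reference cultures 3 were higher and 1 lower in Yap+/- organoids, with a median of 0.22. The higher ones were Apoa4, Fabp2 at 2.20-fold and Lct at 2.19-fold, and Mgam was 2.14-fold lower.

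Markers of other epithelial cell types differed too, and their part in the values of Isx, Bcmo1 and Scarb1 was not tested. For Yap loss the median log2 ratios were 0.42 over 5 stem cell, 0.92 over 5 Paneth, 0.37 over 6 goblet, 0.19 over 6 enteroendocrine and 0.43 over 4 tuft cell markers. With doxycycline they were -1.62 over 5 stem cell, -0.68 over 5 Paneth, -2.12 over 6 goblet, -1.49 over 5 enteroendocrine and 0.12 over 2 tuft cell markers. Between the reference cultures they were -0.74 over 5 stem cell, -0.91 over 5 Paneth, -0.37 over 6 goblet, 0.53 over 6 enteroendocrine and 0.89 over 4 tuft cell markers. Stromal and immune markers were low, with summed levels of 0.435 to 3.46 RPKM for stromal and 3.26 to 8.74 RPKM for immune markers. The stromal markers other than Vim reached at most 0.0448 RPKM in any library. Of 11 YAP target genes 3 of 4 at the floor were lower in Yap-/- organoids (median -1.26), and 10 of 11 were higher with doxycycline (median 3.41).

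The genes of most similar pattern were sought for each of the 3. Likeness was measured as the distance between log2 values of RPKM plus 1 over the 4 libraries, centred on each gene's mean, among 7319 genes at 5 RPKM or more. The nearest to Isx were Defa21 at a distance of 2.47, Defa23 at 2.50 and Hmg1l1 at 2.74, where a flat profile lies at 4.63 from Isx. Defa21, an alpha-defensin gene of Paneth cells, was at 70.7 RPKM in Yap-/- organoids against 55.7 RPKM in Yap+/- ones, and at 598 RPKM with and 866 RPKM without doxycycline. It thus shared the high levels in the YapTg libraries and not the gap between Yap-/- and Yap+/- organoids. Defa21 and Defa23 belong to a family of near-identical copies that can share reads.

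The nearest to Bcmo1 were Ctrb1, which encodes a chymotrypsinogen, at a distance of 2.13, Omt2b at 2.15 and the glutathione transferase gene Gsta3 at 2.20. Ctrb1 was at 18.4 RPKM in Yap-/- organoids against 11.6 RPKM in Yap+/- ones, and at 0.195 RPKM with and 2.76 RPKM without doxycycline. Scarb1 was at rank 27 of the genes nearest to Bcmo1, at a distance of 2.82. Isx was at rank 7315 of 7318, at 9.36. Genes near to Scarb1 were closer, among them Fam132a at 0.67 and Alox5ap, which encodes the activator of an arachidonate lipoxygenase, at 0.69. Fam132a was at 22.9 RPKM in Yap-/- organoids against 15.0 RPKM in Yap+/- ones, and at 3.02 RPKM with and 5.25 RPKM without doxycycline. Distances are smaller for genes with a narrower range, and no shared function or control is drawn from them.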

How the data were processed

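The 4 RNA-seq libraries (1 per group) were prepared from total RNA with an Illumina TruSeq RNA kit, per the labels. CASAVA 1.8, FastQC, TopHat 1.4.1 and mm9 appear in the submitters' processing notes. The sources used here do not give the read counter, annotation, strand setting or filters. No header names the unit of the deposited values, and they were identified as RPKM from the values themselves. All 4 value columns were used.

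Library totals were taken as the value most frequently given by whole reads over GENCODE M21 (GRCm38) gene lengths, and lay within 0.0512 of whole numbers. Reads followed from the whole gene length nearest to GENCODE M21 that made them whole within 0.005 in every library, which was 1792 bases for Isx, 2282 for Bcmo1 and 6291 for Scarb1. Multiples of these lengths would fit too. The GENCODE M21 lengths are 1793 bases for Isx, 2543 for Bcmo1 and 8500 for Scarb1. Recovery of totals was checked on data simulated with GENCODE M21 lengths. That check does not test the choice among lengths that fit. GENCODE M21 places 0 other genes over Isx and 1 same-strand predicted gene each over Bcmo1 (Gm20694) and Scarb1 (Gm42633), with which reads could be shared.

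Folds are ratios of RPKM, with exact conditional binomial 95% intervals (scipy 1.17.1), and log2 ratios carry a pseudocount of 1. Calls past 2-fold use these log2 ratios, so a gene with a fold above 2 can go uncalled. No test was made. The members and 18 gene lists were chosen with earlier results of these data known. Some genes are on more than 1 list. Named list genes are those past 2-fold, up to the 4 furthest, or otherwise the 2 furthest; 3 genes of most similar pattern per member exclude predicted genes. Not every gene so chosen is reported here. The alternatives were other pseudocounts, scalings, floors and thresholds, and ratios of recovered reads. The set of RefSeq promoter sequences used here held Isx and Bcmo1 and had no entry for Scarb1.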

Additional observations from a re-analysis of the deposited data

How the results depend on the processing

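No paired analysis was possible because each group has 1 library. Under 5 alternatives all 9 ratios of Isx, Bcmo1 and Scarb1 kept their direction, and all but Scarb1 in Yap+/- over uninduced YapTg with a pseudocount of 5 (log2 ratio 0.73) kept their side of 2-fold. Counting error at this depth is small, so many values moved past it. For Yap-/- over Yap+/-, Isx was -4.34 with a pseudocount of 0.1, -1.52 with 5 and -4.63 with none. Bcmo1 was 1.28 with 5, 1.30 after median-ratio and 1.30 after upper-quartile scaling. Scarb1 was 1.50 with 0.1, 1.19 with 5 and 1.51 with no pseudocount. For doxycycline, Scarb1 was -0.14 with 5. For Yap+/- over uninduced YapTg, Isx was -2.76 with 0.1, -2.31 with 5 and -2.77 with no pseudocount. It was -2.53 and -2.56 after median-ratio and upper-quartile scaling. Bcmo1 was 4.31 with 0.1, 2.86 with 5 and 4.36 with no pseudocount. Scarb1 was 1.21 with 0.1, 1.20 and 1.17 after the scalings and 1.23 with no pseudocount. A pseudocount pulls ratios of low values toward 0 by construction and cannot change their direction. Only the scalings could have turned a ratio.

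Counts of genes past 2-fold, higher and lower, were 66 and 112 with a pseudocount of 0.1, and 20 and 19 with 5, for Yap loss (36 and 61 as reported). Lower genes were 39 at a floor of 5 RPKM, and 1 and 8 passed 4-fold. With doxycycline they were 350 and 323 with 5, and 191 and 121 at 4-fold (650 and 644 as reported). For the reference cultures they were 198 and 213 with 0.1, 56 and 43 with 5, and 15 and 20 at 4-fold (121 and 79 as reported). Of 318 list medians under alternatives, 27 moved beyond their order-statistic interval and 1 turned, that of stromal markers with doxycycline, at 0.0057 with no floor, where genes near 0 enter.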

Other observations

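Genes that mark the upper or the lower small intestine differed between the cultures in which Bcmo1 differed, and their part in its values was not tested. Of 10 genes of the proximal intestine 4 were at least 2-fold higher in Yap+/- than in uninduced YapTg organoids and 0 lower (median log2 ratio 0.50), with the iron reductase gene Cybrd1 at 42.2 RPKM in Yap+/- organoids against 17.4 RPKM in uninduced YapTg ones. Of 9 genes of the distal intestine at the floor 2 were lower and 0 higher there (median -0.44), with the ileal bile acid-binding protein gene Fabp6 at 12.7 RPKM in Yap+/- organoids against 86.7 RPKM in uninduced YapTg ones and the ileal bile acid transporter gene Slc10a2 at 5.80 and 13.8 RPKM in the same order. In Yap-/- over Yap+/- organoids 2 proximal genes were lower and 0 higher, Cybrd1 by 4.79-fold and the iron exporter gene Slc40a1 by 3.20-fold, while Bcmo1 was higher. Of the distal genes, Ostb was 2.08-fold higher and Fabp6 2.19-fold lower. With doxycycline 6 of 10 proximal and 4 of 9 distal genes were lower, with medians of -1.66 and -0.89. The proximal list shares genes with the lists above, among them Lct, Adh1, Rbp2 and Apoa4. Lct, Adh1 and Apoa4 were among those higher in Yap+/- than in uninduced YapTg organoids. All of these named shared genes were among those lower with doxycycline. Counts of the proximal list are thus not separate from those of the other lists.

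Of 15 lipid-sensing nuclear receptor, coactivator and SREBP genes 0 passed 2-fold for Yap loss (median 0.08) or between the reference cultures (median 0.03), and 1 was higher and 5 lower of 14 with doxycycline (median -0.53). Pparg, one of the PPAR genes, was at 5.16 RPKM in Yap-/- organoids against 9.20 RPKM in Yap+/- ones, and at 17.8 RPKM with and 6.56 RPKM without doxycycline. Ppara, picked as another PPAR gene, was at 9.74 RPKM in Yap-/- organoids against 8.41 RPKM in Yap+/- ones, and at 4.15 RPKM with and 9.74 RPKM without doxycycline. Ppard, also a PPAR gene, differed little within each pair. It was at 11.8 RPKM in Yap-/- organoids against 12.3 RPKM in Yap+/- ones, and at 15.9 RPKM with and 16.1 RPKM without doxycycline. Vdr, the vitamin D receptor gene, was 4.39-fold lower with doxycycline.

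In GENCODE M21 Isx and Bcmo1 lie on chromosome 8, as do Defa21, Defa23 and Ctrb1 among the genes of most similar pattern, where 5.83% of 7268 genes compared lie on that chromosome. Scarb1 lies on chromosome 5. The similar genes were selected by their values, and no test was made.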
